A study of Mus musculus with 14 samples.

Results

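The genes described are 50 of the 24064 genes in the count table of a mouse single-oocyte RNA-seq study: the lysine methyltransferases and JmjC demethylases of histones, with the core subunits of the SET1/MLL complexes. They were chosen by name, with Polycomb subunits and the genes Kdm1a and Kdm1b left out. The study deleted Kdm1a and asked what the oocyte's transcripts look like without it. The paper describes the product of Kdm1a as a demethylase of histone H3 lysine 4 (H3K4) and of H3K9. Poly(A) RNA of single oocytes was amplified, which samples up to 3 kb from the 3′ end of a transcript, and reads were counted per gene.

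The 10 oocytes came as 14 libraries. The controls were 4 wt/wt oocytes of strain C57BL/6J (wt1, wt3, wt4 and wt5) and 1 f/f oocyte of mixed B6;129 background (C3), which carries Kdm1a with loxP sites around its first exon and no Cre. The 5 oocytes named D1, D2, D3, D4 and D7 were mutant (genotype mko/mko, mixed B6;129 background) and carry the same allele with Zp3-cre, which is active in growing oocytes of the female germline. The methods give an age of 4 to 8 weeks for the superovulated females that yielded embryos; an age for the oocytes' females and the number of animals behind the oocytes were not stated separately. C3, D3, D4 and D7 each had 2 libraries, one carrying a suffix DNA that is not explained; the labels number them as separate oocytes, and libraries with the same oocyte name were summed. Strain differed between the wt/wt oocytes and the mutant oocytes, so strain and genotype cannot be told apart except through the single f/f oocyte. Total counts were 1375187, 1740242, 1892015 and 1637050 in wt1, wt3, wt4 and wt5, 6928548 in C3, and 2346547, 2016701, 3245395, 6926076 and 2135951 in the mutants. All values per oocyte are given in that order.

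A lysine methyltransferase (a writer) places methyl groups on a histone tail and a demethylase (an eraser) removes them; the marks on H3K4 and H3K36 go with transcribed genes, and those on H3K9, H3K27 and H4K20 with silent or compact chromatin. KDM1A removes mono- and dimethylation through a flavin-dependent reaction, whereas the JmjC enzymes use iron and oxoglutarate and can also remove trimethylation. In the growing mouse oocyte, KMT2B places much of the H3K4 trimethylation of silent regions and SETD2 places the H3K36 trimethylation along transcribed genes that directs DNA methylation.

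The label of the gene set holds for most of its members, with exceptions known from biochemistry. Wdr5, Ash2l, Rbbp5 and Dpy30 encode subunits without a catalytic site of their own, Setd3 encodes a methyltransferase of a histidine in actin, Jmjd6 encodes a lysyl hydroxylase, and Kmt2e has no established enzyme activity. Several members carry older names in the table: Whsc1 is Nsd2, Whsc1l1 is Nsd3, Setd8 is Kmt5a, and Suv420h1 and Suv420h2 are Kmt5b and Kmt5c.

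Kdm1a itself had 70, 43, 85 and 27 counts in the wt/wt oocytes, 669 in C3, and 0, 2, 4, 3 and 10 in the mutant oocytes. On the CPM scale, which divides counts by a library size adjusted between oocytes, these were 38.7, 18.5, 34.7 and 12.1 in wt/wt, 148 in C3, and 0, 1.22, 1.42, 0.455 and 4.97 in the mutants. No mutant value reached the lowest control, and C3 lay far above the wt/wt oocytes. The log2 fold change of mutant over control was −5.02 (SE 0.86), with an adjusted p of 0.00110 by edgeR, and −4.05 without C3. Kdm1b, the other flavin-dependent H3K4 demethylase, had 430.7, 416, 259 and 305 CPM in wt/wt, 906 in C3, and 154, 139.8, 174, 150.7 and 255 in the mutants. It was lower in 5 of 5 mutant oocytes than in every control oocyte, with a log2 fold change of −1.41 (SE 0.38) and an adjusted p of 0.0141 by edgeR. Without C3 the log2 fold change of Kdm1b was −1.01. By library the groups overlapped, with 247 CPM in wt4 and 270 in a D7 library.

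The label of the cells was checked against markers. A gene passed the filter on low counts when its total was in the top 60% of detected genes, and it was called when its adjusted p by edgeR was under 0.05 and its log2 fold change was at least 1 in size. All 16 oocyte markers passed the filter and none was at 0 in every oocyte, although Figla had 0, 0, 1 and 0 counts in wt/wt; their summed level was 31136, 29109, 27940.0 and 48288 CPM in wt/wt, 84604 in C3, and 140994, 119478, 85229, 65843 and 81020.5 in the mutants. Gdf9 had the highest mean CPM of them over all oocytes, with H1foo above it in wt1 and Oosp1 in wt1 and wt4. Of the 16, 8 were called higher in the mutants (Zp1, Zp2, Zp3, Gdf9, Figla, Nobox, Zar1 and Npm2) and 0 lower, beside 14.7% higher and 11.2% lower over all genes tested. Of those not called, Dazl, Kit, Ddx4 and Oosp1 had negative log2 fold changes of −0.99, −0.47, −0.39 and −0.29. Bmp15, Mos, Nlrp5 and H1foo had positive ones. Dazl had an adjusted p of 0.0394 by edgeR and missed the call only by the size of its fold change. Figla had 4 counts in C3 and 61, 20, 9, 316 and 2 in the mutants, so it passed the filter on total counts through the mutants. Of 16 markers of cumulus and granulosa cells, 3 passed the filter and 8 were at 0 in every oocyte (Amh, Fshr, Inha, Inhba, Foxl2, Ptx3, Tnfaip6 and Lhcgr). Their summed level was 79.5, 41.3, 56.7 and 20.6 CPM in wt/wt, 71.1 in C3, and 93.5, 85.7, 157, 120.6 and 113 in the mutants. The highest mean CPM over all oocytes was that of Cyp19a1, which ranged from 8.50 to 147 CPM, lay below Nr5a2 in wt5, and was the 1 marker of this list called higher, with 0 called lower. The other tested markers of this list had negative log2 fold changes and were not called: Nr5a2 had 11.6, 9.47, 8.57 and 9.40 CPM in wt/wt, 1.55 in C3, and 2.19, 1.82, 2.13, 0.910 and 6.47 in the mutants (log2 fold change −1.60), and Kitl had a log2 fold change of −0.34. Has2, under the filter, had 4, 14, 3 and 2 counts in wt/wt and at most 1 in any other oocyte. The summed levels of both lists were higher in the mutants than in the wt/wt oocytes, and their part in the results on the histone enzymes was not tested.

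Levels of different genes were compared as CPM per kb of exonic length in the 4 wt/wt oocytes. On this scale the most abundant members were core subunits: Dpy30 had a level of 428 ± 59.4 CPM per kb (SD, n = 4) and Wdr5 had 155 ± 32.4. Below them in level, also in CPM per kb of full length, came Suv39h2 at 26.2 ± 5.61, Setd8 at 24.8 ± 7.61, Setd2 at 24.3 ± 4.13 and Kmt2c at 23.5 ± 8.01, whose spreads overlap. Kdm2b (12.4 ± 7.04), Setdb1 (10.2 ± 4.11) and Kmt2b (10.1 ± 5.11) completed the 9 members with a level above 10 CPM per kb. With the length limited to the 3 kb that the cDNA reaches, 16 members were above that level, and long genes moved up: Kmt2c had a level of 117 and Setd2 of 67.6 CPM per capped kb, above Suv39h2 (37.8) and Setd8 (24.8). The order below Dpy30 and Wdr5 therefore depends on the length used. The member with the highest mean in each of the 10 role groups stayed the same gene with either length. For the H3K27 erasers that gene was Kdm6a, whose mean of 8.43 ± 12.4 CPM per kb rests on wt1. In wt3, wt4 and wt5, Kdm6b had more CPM than Kdm6a. By their level in CPM per kb, 24 of the 50 members were at or under 1. Among the members, no demethylase except Kdm2b reached 10 CPM per kb on full length. The most abundant H3K4 eraser of the set was Kdm5c, with a level of 5.88 ± 1.57 CPM per kb. Kdm1a and Kdm1b, also H3K4 demethylases, are outside the set and were not ranked here.

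Mutant and control oocytes were compared over 9198 genes. Calls were made for 2385 of them (25.9%), with 1353 (14.7%) up and 1032 (11.2%) down in the mutants, and for 1489 (16.2%) the values of both groups did not overlap. With library totals as the only scaling the balance turned round, to 965 genes up and 1667 down, and the median over every gene tested went from a log2 fold change of 0.17 to −0.22. Of the 50 members, 39 passed the filter and 5 were called, 12.8% of those tested, which is under the share of all genes. Setd1b and Setd3 were called higher, and Setd2, Kdm5c and Kdm3a were called lower. The groups did not overlap for 5 members (12.8%): Setd1b, Setd3 and Rbbp5 upwards, Setd2 and Kdm3a downwards. Neither share exceeds that of all genes tested. The median log2 fold change of the 39 members was 0.15, beside 0.17 over all genes, and the median of its size was 0.70, beside 0.96; 21 members had a positive and 18 a negative value.

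**Figure D1:**
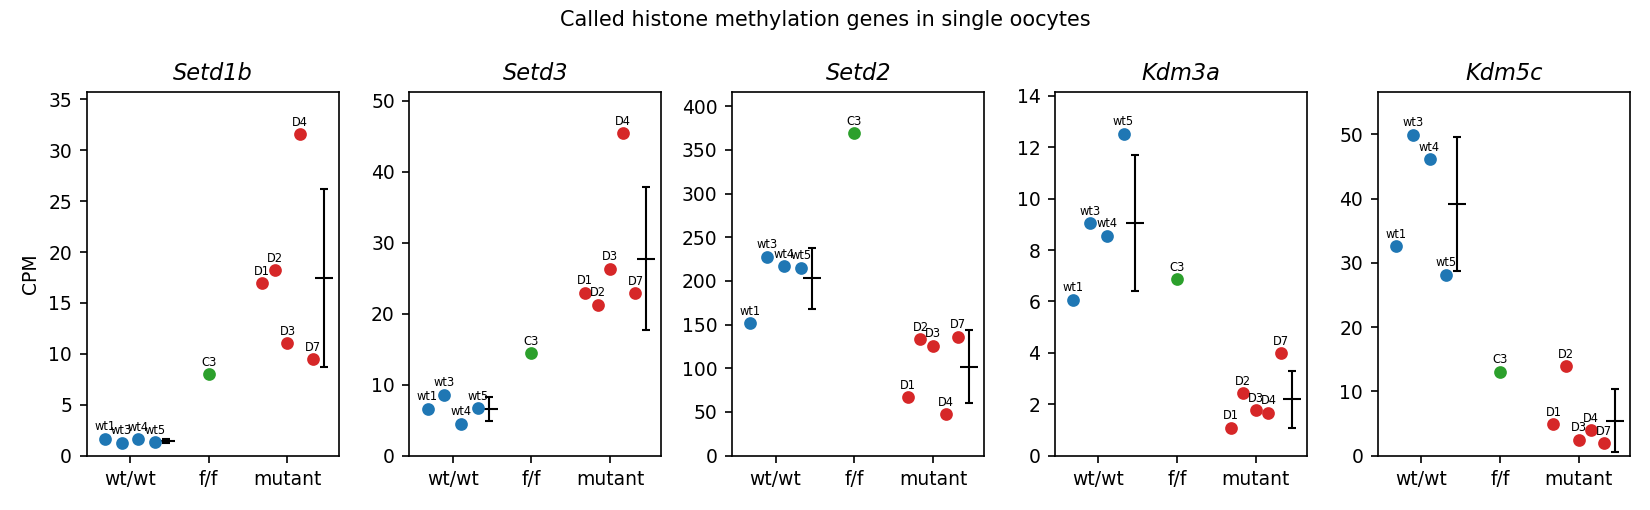
CPM of the 5 called genes in each oocyte, with wt/wt, f/f and mutant oocytes as separate columns of named points and black bars for mean ± SD of the wt/wt and mutant groups. For Setd1b, Setd3, Setd2 and Kdm3a all mutant points lie on the same side of every control point, and for Kdm5c the f/f oocyte (13.1) lies below D2 (14.0).

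Among the H3K4 writers, Setd1b encodes the catalytic subunit of a complex for H3K4 trimethylation. It had 1.66, 1.29, 1.63 and 1.34 CPM in wt/wt, 7.97 in C3, and 17.0, 18.2, 11.02, 31.6 and 9.45 in the mutants. The wt/wt oocytes had only 3, 3, 4 and 3 counts, the f/f oocyte lay between both groups, and all 5 mutant oocytes were above it. The mean was 2.78 ± 2.91 CPM in controls (SD, n = 5) and 17.4 ± 8.74 in mutants (SD, n = 5). The log2 fold change was 2.56 (SE 0.62), with an adjusted p of 0.00802 by edgeR; without C3 it was 3.54. The libraries of one oocyte differed as well: the D7 libraries had 11.8 and 4.79 CPM, the lower of them resting on 5 counts and lying below the C3 libraries at 7.54 and 7.32.

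Setd1a, the paralog of Setd1b in a parallel complex, was not called and is described here after its values were seen. It had 7.18, 16.4, 35.5 and 4.92 CPM in wt/wt, 48.1 in C3, and 164, 110.0, 29.9, 14.9 and 37.3 in the mutants. D1 and D2 stood far above all other oocytes, and the remaining mutants lay within the range of the controls. Its log2 fold change was 1.64 (SE 0.67), with an adjusted p of 0.0804 by edgeR. It was called higher without C3, without D4, without a filter and by DESeq2, with log2 fold changes of 2.22, 1.92, 1.62 and 1.72.

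Kmt2b, the gene for the main H3K4 methyltransferase of the growing oocyte, had 32.6, 94.7, 137 and 78.3 CPM in wt/wt, 114.5 in C3, and 129.6, 98.5, 32.4, 32.2 and 73.1 in the mutants. The groups covered the same range, and the difference was within the spread between oocytes (log2 fold change −0.33, SE 0.46, adjusted p 0.626 by edgeR). Kmt2c, for an enhancer H3K4 monomethyltransferase, had 413, 326, 472 and 196 CPM in wt/wt, 1229.5 in C3, and 229.6, 204, 507, 326 and 482 in the mutants. C3 was above every other oocyte, D3 and D7 were just above the highest wt/wt oocyte, and the other mutants lay within the wt/wt range (log2 fold change −0.59, SE 0.46, adjusted p 0.354 by edgeR). Without C3 the log2 fold change of Kmt2c was −4.02e-05. Of the other H3K4 writers, Kmt2d, Kmt2e and Smyd3 were tested and not called, with log2 fold changes of 0.23, 1.13 and 2.38. Smyd3 had the largest log2 fold change of any uncalled member and 8.20 CPM in D1 and 4.40 in D4, against at most 1.42 in every other oocyte. It had 0, 2, 2 and 0 counts in wt/wt and 4 in C3, so it passed the filter on total counts through the mutants. With each library as its own sample Smyd3 was called higher, with a log2 fold change of 2.21 and an adjusted p of 0.04996 by edgeR. That setting counts the libraries of one oocyte, D4 among them, as separate samples.

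The core subunits WDR5, ASH2L, RBBP5 and DPY30 are shared by all SET1/MLL enzymes, and none of their 4 genes was called, beside 25.9% of all genes. Dpy30 had 445, 575, 493 and 424 CPM in wt/wt, 830.4 in C3, and 495, 938, 960.2, 603 and 687 in the mutants. Every mutant except D1 was above every wt/wt oocyte, but C3 was above D1, D4 and D7 (log2 fold change 0.41, SE 0.33, adjusted p 0.377 by edgeR). Rbbp5, named after its values were seen, had 28.2, 18.1, 25.3 and 22.8 CPM in wt/wt, 31.9 in C3, and 45.9, 34.6, 55.8, 45.2 and 38.8 in the mutants. It was higher in 5 of 5 mutants, but its log2 fold change of 0.80 (SE 0.34, adjusted p 0.0875 by edgeR) was under the threshold. Wdr5, also named after its values were seen, had 421, 410.3, 377 and 586 CPM in wt/wt, 529 in C3, and 1054, 1082, 308, 261 and 326 in the mutants. D1 and D2 were above every control and D3, D4 and D7 below every control. Ash2l had a log2 fold change of −0.035.

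Kdm5c, an X-linked gene for a demethylase of H3K4 di- and trimethylation, was the most abundant H3K4 eraser of the set per kb in wt/wt. It was also the tested member with the largest fall. It had 32.6, 49.9, 46.1 and 28.2 CPM in wt/wt, 13.1 in C3, and 4.92, 14.0, 2.49, 3.94 and 1.99 in the mutants. All wt/wt oocytes were above all mutant oocytes, whereas the f/f oocyte lay inside the range of the mutants, just under D2. The mean was 34.0 ± 14.8 CPM in controls (SD, n = 5) and 5.46 ± 4.90 in mutants (SD, n = 5), a log2 fold change of −2.67 (SE 0.57) with an adjusted p of 0.00402 by edgeR. Without D2 it was −3.31. The libraries of C3 had 13.0 and 10.98 CPM, so the low value of that oocyte was present in both. Because the mutant oocytes have the strain of C3 and not that of the wt/wt oocytes, strain and genotype cannot be told apart for Kdm5c.

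Kdm5b, for another H3K4 demethylase of the family, was tested and had a log2 fold change of 1.41 with an adjusted p of 0.225 by edgeR, and Kdm5a had 2 or fewer counts in any oocyte. Summed over the 3 H3K4 erasers of the set, without Kdm1a and Kdm1b, the level was 34.8, 53.8, 46.1 and 37.1 CPM in wt/wt. It was 13.7 in C3, and 10.9, 17.0, 10.3, 8.35 and 22.4 in the mutants. Kdm5c made up 93.5% of the summed CPM per kb of these 3 erasers in wt/wt and 47.5% in the mutants. In the mutants the mean level was 0.900 ± 0.763 CPM per kb for Kdm5b and 0.820 ± 0.735 for Kdm5c, with overlapping spreads.

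Setd2 encodes the enzyme for H3K36 trimethylation. It had 152, 228, 217 and 215 CPM in wt/wt, 369 in C3, and 67.3, 133, 126, 47.2 and 136 in the mutants. All mutants were below all controls, with wt1 the lowest control and C3 the highest. The mean was 236 ± 80.2 CPM in controls (SD, n = 5) and 102 ± 41.6 in mutants (SD, n = 5). The log2 fold change was −1.21 (SE 0.38), with an adjusted p of 0.0280 by edgeR. The call was near its threshold: without wt3, D1 or D4 the log2 fold change was −1.22, −1.08 and −1.02 and the adjusted p by edgeR was 0.0531, 0.0753 and 0.0526, and without C3 the log2 fold change was −0.98. By library the groups touched, with 148 CPM in the lowest control library (wt1) and 150.5 in the highest mutant library (a D3 library).

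The NSD enzymes place H3K36 dimethylation. Whsc1 had 27.1, 48.2, 80.4 and 46.1 CPM in wt/wt, 41.4 in C3, and 48.1, 57.1, 22.8, 12.3 and 36.8 in the mutants. Its paralog Whsc1l1 had 1.66, 0.861, 3.67 and 0.895 CPM in wt/wt, 0.886 in C3, and 6.01, 2.43, 0.711, 3.79 and 2.49 in the mutants. Both overlapped between the groups, with log2 fold changes of −0.47 (SE 0.44) and 0.94 (SE 0.77) and adjusted p of 0.449 and 0.384 by edgeR. Nsd1 was not called either (log2 fold change 0.73). Summed over the 6 H3K36 writers, the level was 208.2, 291, 334.5 and 277 CPM in wt/wt, 432 in C3, and 154, 222, 169, 141 and 202 in the mutants. Setd2 had the highest CPM of these writers in every oocyte except D4, where Nsd1 had 75.9 CPM. The erasers of H3K36, Kdm2a and Kdm2b, were not called. Kdm2b had 43.1, 66.7, 49.0 and 133 CPM in wt/wt, 51.2 in C3, and 97.9, 55.9, 53.7, 247 and 34.3 in the mutants, with wt5 and D4 high in their groups. Its log2 fold change was 0.52 (SE 0.50, adjusted p 0.472 by edgeR) and turned to −0.17 without D4. Kdm2a had a log2 fold change of 0.40.

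**Figure D2:**
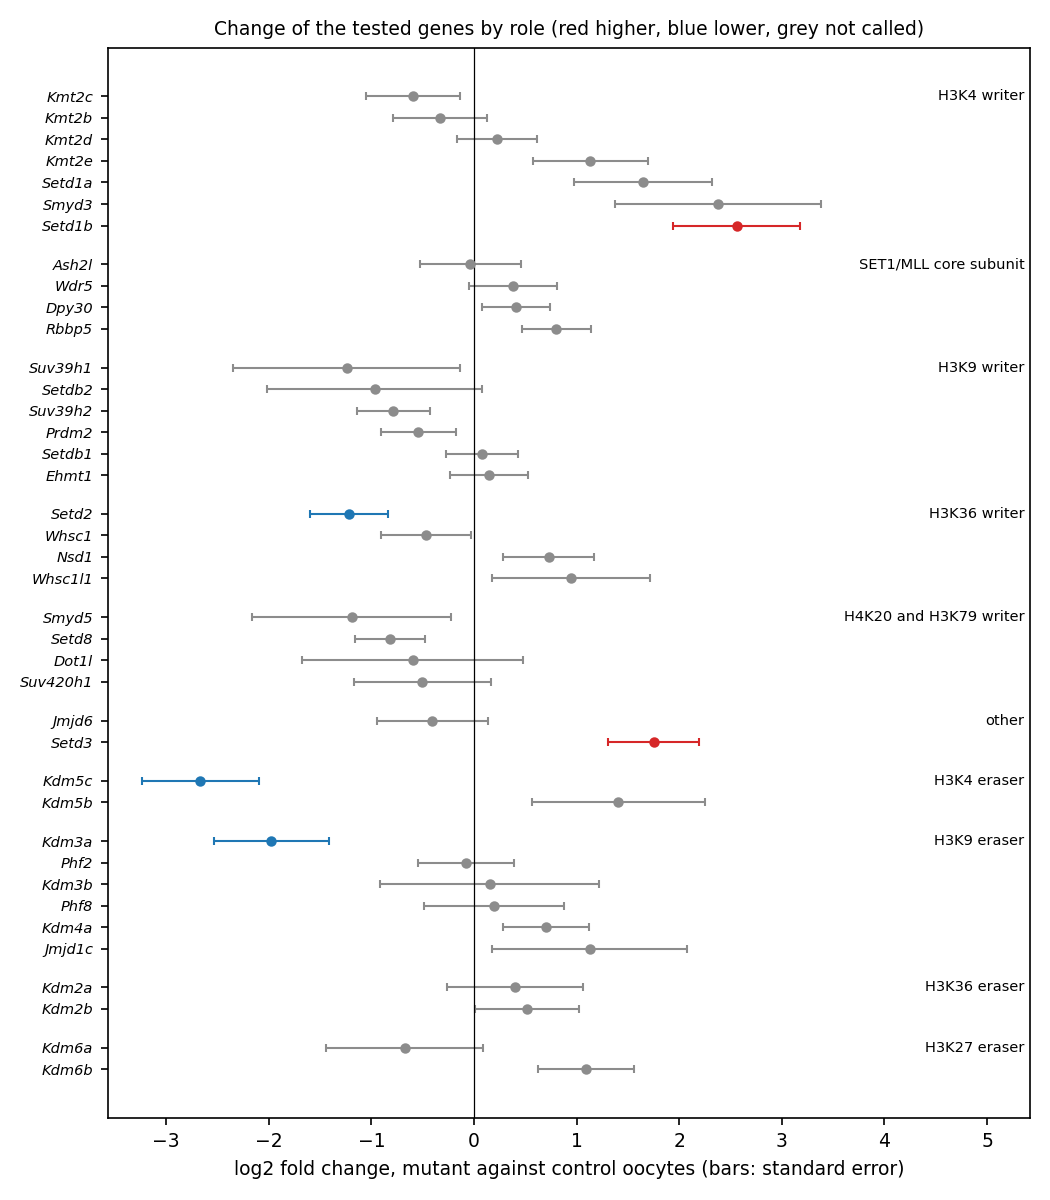
Log2 fold change of mutant over control oocytes with its SE for the 39 tested members, grouped by role, with genes called higher in red, called lower in blue and not called in grey. The called genes run from −2.67 (Kdm5c) to 2.56 (Setd1b) and fall in 5 different role groups.

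Of the 6 tested writers of H3K9 methylation 0 were called, beside 25.9% of all genes. Suv39h2, for an enzyme of H3K9 trimethylation in pericentric heterochromatin, had 129.8, 129.6, 116 and 78.3 CPM in wt/wt, 113 in C3, and 55.8, 31.0, 87.1, 63.0 and 91.5 in the mutants. The mutants were lower except that D3 and D7 were above wt5, and the log2 fold change was −0.79 (SE 0.35, adjusted p 0.109 by edgeR). With library totals as the only scaling, which shifts the median of all genes by −0.39, Suv39h2 was called lower. Its paralog Suv39h1 had 5, 11, 1 and 3 counts in wt/wt, 1 in C3, and 0, 0, 1, 17 and 0 in the mutants, and it was not called (log2 fold change −1.24, SE 1.11, adjusted p 0.429 by edgeR). In the mutant group, D4 held nearly all counts of Suv39h1. The genes Setdb1, Setdb2, Ehmt1 and Prdm2, for further H3K9 methyltransferases, had log2 fold changes of 0.077, −0.97, 0.15 and −0.54.

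Kdm3a, for a demethylase of H3K9 mono- and dimethylation, was the called member among the H3K9 erasers. It had 6.07, 9.04, 8.57 and 12.5 CPM in wt/wt, 6.87 in C3, and 1.09, 2.43, 1.78, 1.67 and 3.98 in the mutants. All mutants were below all controls, and C3 lay within the wt/wt range. The mean was 8.62 ± 2.50 CPM in controls (SD, n = 5) and 2.19 ± 1.11 in mutants (SD, n = 5), a log2 fold change of −1.97 (SE 0.56) with an adjusted p of 0.0180 by edgeR. The mutant values rest on 2, 4, 5, 11 and 8 counts, and single libraries overlapped, with 4.18 CPM in a C3 library and 4.21 in a D7 library.

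Its paralog Kdm3b had 1, 1, 0 and 0 counts in wt/wt, 116 in C3, and 8, 8, 37, 26 and 10 in the mutants. In CPM this was 0.552, 0.431, 0 and 0 in wt/wt, 25.7 in C3, and 4.37, 4.86, 13.2, 3.94 and 4.97 in the mutants. The f/f oocyte was the highest of all, every mutant was above every wt/wt oocyte, and the wt/wt oocytes were at the floor of detection. Against all 5 controls the log2 fold change was 0.15 (SE 1.07, adjusted p 0.930 by edgeR). Without C3 the gene was called higher, with a fitted value of 4.52 that depends on the prior count and an adjusted p of 0.00277 by edgeR. In that fit the controls had only 1, 1, 0 and 0 counts, so Kdm3b passed the filter on total counts through the mutants. Strain and genotype cannot be told apart for Kdm3b.

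Phf2 had the highest mean level of the set's H3K9 erasers in wt/wt, at 2.36 ± 0.56 CPM per kb. Kdm4a at 2.04 ± 0.50 and Kdm3a at 1.81 ± 0.53 were close to it, with overlapping spreads. Phf2 had 11.04, 16.4, 14.7 and 9.85 CPM in wt/wt, 21.0 in C3, and 23.0, 21.3, 10.7, 6.98 and 8.46 in the mutants. The mutants fell on both sides of the wt/wt oocytes, and the log2 fold change of −0.075 (SE 0.47, adjusted p 0.922 by edgeR) changed sign when C3 was left out (0.14). Jmjd1c, Kdm4a and Phf8 were tested and not called, with log2 fold changes of 1.13, 0.70 and 0.20. Kdm4a ran from 8.06 to 13.8 CPM in wt/wt and from 13.5 to 26.9 CPM in the mutants, with 19.3 in C3.

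The writers of H4K20 and H3K79 methylation all had negative log2 fold changes, from −1.19 to −0.50 over Setd8, Suv420h1, Smyd5 and Dot1l, and 0 of these 4 were called, beside 25.9% of all genes. Without C3, Suv420h1 changed sign and Dot1l fell under the filter. Setd8, for the H4K20 monomethyltransferase, made up 93.8% of the group's summed CPM per kb in wt/wt. It had 43.6, 79.2, 75.9 and 98.5 CPM in wt/wt, 68.4 in C3, and 54.1, 40.7, 37.7, 27.3 and 47.7 in the mutants. Apart from wt1, every control was above every mutant (log2 fold change −0.82, SE 0.34, adjusted p 0.0869 by edgeR). With library totals as the only scaling Setd8 was called lower.

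The H3K27 demethylase genes were not called. Kdm6a, X-linked, had 160.1, 18.1, 19.2 and 2.69 CPM in wt/wt, 192 in C3, and 27.9, 18.8, 52.6, 80.3 and 64.7 in the mutants. The controls spread more widely than the mutants, with wt1 and C3 above every mutant and the others near or below the lowest mutant (log2 fold change −0.68, SE 0.77, adjusted p 0.544 by edgeR). Without C3 the log2 fold change of Kdm6a was −0.026, and without wt1 it was −0.25. Kdm6b, named after its values were seen, had 18.2, 38.3, 43.6 and 34.9 CPM in wt/wt, 31.0 in C3, and 112, 93.6, 30.9, 19.4 and 101 in the mutants. D1, D2 and D7 were above every control while D3 and D4 were within the control range (log2 fold change 1.09, SE 0.47, adjusted p 0.0935 by edgeR), and without D4 it was called higher, with a log2 fold change of 1.35.

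Setd3, for the actin histidine methyltransferase, had 6.63, 8.61, 4.49 and 6.71 CPM in wt/wt, 14.4 in C3, and 23.0, 21.3, 26.3, 45.4 and 22.9 in the mutants. Every mutant was above every control, D4 was the highest, and C3 lay between both groups. The mean was 8.17 ± 3.78 CPM in controls (SD, n = 5) and 27.8 ± 10.01 in mutants (SD, n = 5). The log2 fold change was 1.75 (SE 0.44), with an adjusted p of 0.0100 by edgeR. Setd3 did not overlap between groups by library either, with 13.7 and 13.1 CPM in the C3 libraries and 16.3 in the lowest mutant library. Jmjd6, for the lysyl hydroxylase, had 11.04, 16.8, 13.1 and 6.71 CPM in wt/wt, 9.75 in C3, and 19.1, 10.3, 2.84, 5.61 and 5.97 in the mutants. Its groups overlapped (log2 fold change −0.40, SE 0.54, adjusted p 0.611 by edgeR).

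The 11 members under the filter were Kmt2a, Setd7, Prdm9, Ehmt2, Ash1l, Smyd2, Suv420h2, Kdm5a, Kdm4b, Kdm4c and Kdm4d. None of these 11 had more than 9 counts or 1.82 CPM in any oocyte. Setd7, for an H3K4 monomethyltransferase, was at 0 in all 10 oocytes. Several have a close relative with many counts in the same oocytes: Ehmt1 beside Ehmt2, Kmt2b beside Kmt2a and Kdm4a beside Kdm4b and Kdm4c.

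The f/f oocyte shares its background with the mutants and its intact Kdm1a transcript with the wt/wt oocytes. Among the 39 tested members, C3 had a value inside the wt/wt range alone for 5 (Suv39h2, Prdm2, Setd8, Kdm5b and Kdm3a), 12.8% beside 22.0% of all genes tested. It lay within the range of the mutants alone for 11 members (28.2% beside 24.3%), Kdm5c, Setd1a and Dpy30 among them, and within both ranges for 12 (30.8% beside 26.2%). For Setd1b, Rbbp5 and Setd3 it lay between the ranges (7.69% beside 6.12%), for 0 members it lay below both (beside 8.41%), and for 8 members (20.5% beside 12.9%) it lay above both: Kmt2c, Ash2l, Setd2, Suv420h1, Dot1l, Kdm3b, Kdm2a and Kdm6a. On log2 CPM, C3 was nearer the mutant mean for 22 of the 39 members (56.4% beside 45.7% of all genes). With 1 f/f oocyte these places have no error of their own.

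Paralogs were compared within each oocyte as a log2 ratio of CPM with a prior count of 2 scaled to the library size, which weighs on genes with few counts. Of 14 pairs, 9 had both genes tested, and 0 differed between mutant and control at an adjusted p under 0.05 by an exact two-sided permutation test with Benjamini-Hochberg adjustment over the 9 pairs; 2 did at an unadjusted p under 0.05. Those were Whsc1 over Whsc1l1 and Kdm3a over Kdm3b, each with an exact permutation p of 0.0397 (adjusted 0.179), where the smallest possible is 0.00794. A single pair at that smallest exact permutation p would have an adjusted value of 0.0714, so no pair could pass alone, and the count of 0 does not show that the ratios did not differ. Over the alternatives run, the difference of mutant minus control for Whsc1 over Whsc1l1 went from −1.47 to −0.78, with an unadjusted exact permutation p from 0.0159 to 0.175; it was −0.80 without D4 and −0.78 with 1 library per oocyte. For Kdm3a over Kdm3b it went from −4.79 to −2.52, with an unadjusted exact permutation p from 0.0159 to 0.0794. The log2 ratio of Kdm3a over Kdm3b was 2.43, 3.10, 3.71 and 4.22 in wt/wt, −1.80 in C3, and −1.50, −0.83, −2.48, −0.97 and −0.28 in the mutants. This ratio of CPM, which takes no account of gene length, was positive in all wt/wt oocytes and negative in all others. By its sign the f/f oocyte stood with the mutants. D7 rests on 8 counts of Kdm3a and 10 of Kdm3b, and its library with suffix DNA had 5 and 1. The log2 ratio of Whsc1 over Whsc1l1 was 3.55, 4.96, 4.21 and 4.87 in wt/wt, 4.72 in C3, and 2.86, 4.20, 4.05, 1.53 and 3.55 in the mutants, where D4 was the lowest and D2, D3 and D7 were close to wt1 and wt4.

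Other genes of histone lysine methylation were read from the same fit as lists, and those named here were chosen after their values were seen. The first list joined associated subunits of SET1/MLL complexes with readers of H3K4 methylation that belong to other complexes (Ing1, Ing2, Bptf and Taf3). Of its 12 genes, all tested, 1 was called higher (Men1) and 3 lower (Psip1, Ncoa6 and Ing1), with a median log2 fold change of −0.30; over all genes tested 25.9% were called. Ncoa6, for a subunit of the KMT2C and KMT2D complexes, had 509, 543, 566 and 577 CPM in wt/wt, 221 in C3, and 128, 115, 199, 123 and 131 in the mutants. Ing1, for a reader of H3K4 trimethylation, had 506, 510.1, 489 and 378 CPM in wt/wt, 602 in C3, and 109.9, 153, 250.3, 90.7 and 214 in the mutants. Both were lower in 5 of 5 mutants than in every control, with log2 fold changes of −1.79 (SE 0.35, adjusted p 0.00233 by edgeR) and −1.60 (SE 0.35, adjusted p 0.00471 by edgeR). Psip1 had the highest mean CPM of the list over all oocytes, with Ncoa6 and Ing1 above it in wt5 and Wdr82 in D4. The summed level of the list was from 1774 to 2551 CPM in wt/wt, 2927 in C3 and from 989 to 1593 in the mutants.

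The same share of all genes, 25.9%, is the background for the next lists. Of 12 heterochromatin proteins and H3K9 cofactors, all tested, 1 was called higher (Mphosph8, log2 fold change 2.92) and 0 lower, with a median of 0.80. Mphosph8 had 13.3, 5.60, 7.34 and 5.82 CPM in wt/wt, 55.6 in C3, and 159, 51.7, 78.9, 344 and 44.3 in the mutants. The f/f oocyte lay above D2 and D7, so strain and genotype cannot be told apart for Mphosph8. Uhrf1 had the highest mean CPM over all oocytes, but Trim28 was above it in wt1, wt3, wt4 and D2, and Atrx in wt1 and wt4. Of 17 other SET and PRDM genes, 7 were tested, 1 was called higher (Prdm1, 1.45) and 1 lower (Setd6, −1.76), with a median of −0.58; Ezh2 had the highest CPM in every oocyte and Prdm8 was at 0. A last list joined demethylase genes outside the set with JmjC genes whose products are hydroxylases (Hif1an, Tyw5, Mina, Jmjd4 and Jmjd7) or have no established demethylase activity (Jarid2 and Jmjd8). Of its 14 genes, 9 were tested, 1 was called higher (Jmjd8) and 3 lower (Kdm1a, Kdm1b and Kdm7a), with a median of −0.43. Jmjd8 had 1, 1, 1 and 1 counts in wt/wt, 5 in C3, and 12, 17, 5, 25 and 3 in the mutants. It passed the filter on total counts through the mutants, and its fitted log2 fold change of 2.84 rests on few control counts. Uty, Kdm5d and Jmjd7 were at 0 in every oocyte. Kdm7a, for a demethylase of H3K9 and H3K27, had 150.2, 137, 176 and 78.3 CPM in wt/wt, 213 in C3, and 45.4, 27.3, 67.2, 54.5 and 76.6 in the mutants. Its highest mutant value, in D7, lay just under its lowest control value, in wt5 (log2 fold change −1.47, SE 0.38, adjusted p 0.0104 by edgeR).

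The called genes lie on different chromosomes in build GRCm38: Setd1b at chr5:123142193-123168629, Setd3 at chr12:108106431-108179314, Setd2 at chr9:110532597-110618633, Kdm5c at chrX:152233020-152274535 and Kdm3a at chr6:71588972-71632990. None of these 5 shares exonic bases with another annotated gene, whereas 17 of the 50 members do, among them Setd1a, Suv39h1, Suv39h2, Kmt2c, Whsc1, Jmjd6, Phf2, Kdm2b and Kdm3b. Reads of such overlaps may belong to either gene, and whether counting used the strand was not stated.

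Promoter sequence (from 250 bases before to 50 after the transcript start; RefSeq, build GRCm38.p6) was available for 35 of the 50 members and for 4 of the 5 called genes, all but Setd1b. The member promoters were rich in CG steps, with a median of 24 (quartiles 16.5 and 34.5) beside 7 (quartiles 3 and 20) over all 32851 promoters. The letters GGGCGG, searched on both strands, were found in 25 of the 35 (71.4% beside 35.7% of all promoters), CCAAT on both strands in 15 (42.9% beside 37.4%), and TATAAA on both strands in 0 (beside 13.6%). Each motif was counted by itself, overlaps with another included, and a match is a description and not a binding site. The promoters of the called genes are shown because Setd3 rose while Setd2, Kdm3a and Kdm5c fell. Setd3 (chr12:108179235-108179534, minus strand) and Setd2 (chr9:110532347-110532646, plus strand) had 40 and 38 CG steps, Kdm3a (chr6:71632868-71633167, minus strand) had 24, and Kdm5c (chrX:152232977-152233276, plus strand) had 13. CG steps are in capitals, and where a gene has several starts the most upstream is shown.
Setd3: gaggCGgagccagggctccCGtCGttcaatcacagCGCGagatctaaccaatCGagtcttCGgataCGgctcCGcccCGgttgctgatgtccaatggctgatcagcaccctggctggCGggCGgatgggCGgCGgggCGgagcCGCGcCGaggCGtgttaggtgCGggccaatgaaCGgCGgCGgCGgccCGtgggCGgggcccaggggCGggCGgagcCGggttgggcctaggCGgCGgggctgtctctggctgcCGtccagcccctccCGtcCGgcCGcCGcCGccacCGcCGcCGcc
Setd2: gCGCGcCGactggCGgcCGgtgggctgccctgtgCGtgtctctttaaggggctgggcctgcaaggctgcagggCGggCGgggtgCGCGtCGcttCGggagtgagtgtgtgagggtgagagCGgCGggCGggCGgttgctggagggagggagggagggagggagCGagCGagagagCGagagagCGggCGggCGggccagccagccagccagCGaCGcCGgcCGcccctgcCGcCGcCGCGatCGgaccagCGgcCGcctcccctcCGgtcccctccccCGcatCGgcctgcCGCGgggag
Kdm3a: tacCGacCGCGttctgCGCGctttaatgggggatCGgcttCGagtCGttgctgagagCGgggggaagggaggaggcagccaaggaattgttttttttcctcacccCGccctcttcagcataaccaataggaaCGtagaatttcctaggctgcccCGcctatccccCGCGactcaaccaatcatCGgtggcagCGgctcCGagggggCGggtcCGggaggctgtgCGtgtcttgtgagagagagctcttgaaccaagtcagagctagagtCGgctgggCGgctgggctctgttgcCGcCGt
Kdm5c: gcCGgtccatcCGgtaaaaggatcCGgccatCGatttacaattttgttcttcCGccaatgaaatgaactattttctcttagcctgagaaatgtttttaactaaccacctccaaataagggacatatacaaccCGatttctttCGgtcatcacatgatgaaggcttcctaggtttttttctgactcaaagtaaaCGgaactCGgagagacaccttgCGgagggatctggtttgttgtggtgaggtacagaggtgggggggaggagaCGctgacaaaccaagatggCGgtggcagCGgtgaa

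Since the animals behind the oocytes were not named, the p-values measure only the spread between these oocytes. RNA per oocyte was not measured, so CPM compare shares of each oocyte's counts.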

How the data were processed

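Single mouse oocytes were sequenced as 14 libraries. The deposited table holds raw read counts per gene that the authors made with TopHat2 2.0.6 and HTSeq 0.5.3p9, per the labels. Libraries with the same oocyte name were summed (10 oocytes; 1375187 to 6928548 counts). Of 15432 genes with a count, the top 60% by total count (9198) were tested with edgeR 4.0.16 in R 4.3.3 (TMM scaling, quasi-likelihood test, Benjamini-Hochberg over all genes tested), 5 control against 5 mutant oocytes. CPM use TMM-adjusted library sizes. Log2 ratios of paralogs use a prior count of 2 and an exact two-sided permutation test over 252 groupings. The fit was tested on simulated data. Lengths and coordinates come from GENCODE M21 (GRCm38) and promoters from RefSeq.

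Values are given for every called member, Kmt2b and Suv39h1, Kdm1a and Kdm1b, the member with the highest CPM per kb in wt/wt oocytes in each role, and the pairs with the smallest exact p; other genes were named after their values were seen. Members and lists were chosen with earlier results of these data known. Alternatives were DESeq2 1.42.0, scaling by upper quartiles or by library totals alone, no filter, the filterByExpr filter, adjusted p alone, each library as its own sample with and without a replicate block, 1 library per oocyte, wt/wt oocytes alone, leaving out each oocyte, another prior count, and length capped at 3 kb. Counting intervals were not given, since amplified reads are not independent molecules.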

Additional observations from a re-analysis of the deposited data

Results flagged for a closer look

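In 16 of 63 sets of 4 or 5 oocytes, 1 oocyte stood apart from the rest by a gap that took up most of the range of the set. Chance gives about 1 in 20 sets for independent values with a normal distribution. CPM and totals need not follow one, and the control and wt/wt sets share oocytes, so that rate need not hold here. Total counts were far above the rest of their groups in C3 (6928548) and D4 (6926076). C3 was the highest control for Setd1b (7.97 CPM), Kdm1a (148 CPM), Kdm1b (906 CPM), Kmt2c (1229.5 CPM) and Kdm3b (25.7 CPM). Among the other controls, wt5 stood apart for Kdm2b (133 CPM) and wt4 for Whsc1l1 (3.67 CPM). Within the wt/wt oocytes alone, wt1 was low for Setd2 (152 CPM) and high for Kdm6a (160.1 CPM). Among the mutants, D4 was high for Setd3 (45.4 CPM) and Suv39h1 (2.58 CPM), D2 for Kdm5c (14.0 CPM), D7 for Kdm1a (4.97 CPM) and D3 for Kdm3b (13.2 CPM). The part of depth in these values was not tested.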

How the results depend on the processing

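Setd1b and Kdm5c kept their calls in all 18 distinct alternative fits (wt/wt alone and leaving out C3 are the same fit), with log2 fold changes from 2.23 to 3.54 and from −3.31 to −2.40. Of 89 values of the called members in these fits, 82 kept direction and call, 7 lost the call and 0 reversed. The number of members called higher (2) was 4 with wt/wt oocytes alone as control, 1 with each library as its own sample and a replicate block (both choices changed together, called the block here), and 2 to 4 when single oocytes were left out, with 4 without C3 and without D4. The number called lower (3) was 5 with library totals alone, 1 with the block, and 2 to 3 when single oocytes were left out. All genes called (2385) were 2886 with each library as its own sample, 966 with the block added, and from 1607 (without D1) to 2885 (without C3). With the block, Setd2, Setd3, Kdm3a and Kdm1b had log2 fold changes of −1.07, 1.64, −2.15 and −1.42 and adjusted p by edgeR of 0.144, 0.0628, 0.119 and 0.0708; the block pairs libraries that share only a number, and the correlation across genes of libraries with the same number was 0.0751, 0.0984 and −0.0902. Members above 10 CPM per kb were 16 in place of 9 with length capped at 3 kb. Among the genes named by the rule, the values that reversed were all uncalled: Phf2 was 0.044 with filterByExpr, 0.14 with wt/wt alone, 0.10 with the block and −0.29 to 0.14 when single oocytes were left out; Kdm2b was −0.088 with the block and −0.17 to 0.92; Kdm6a was 0.66 with the block; Kdm3b was −0.26 with each library as its own sample and −0.28 to 4.52. The cause was not tested. Kdm3a, Kdm3b, Whsc1l1 and Suv39h1 were not tested under filterByExpr, which keeps fewer genes. Suv39h1 was also not tested without wt3 or without D4, and its log2 fold change was −2.99 with the block. Setd1b, Kdm3a, Kdm3b and Suv39h1 rest on few counts, as do Jmjd8, Figla and Smyd3 in the controls.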
